A study of Mus musculus with 12 samples.

Results

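The genes described here are 10 mouse genes for taking up, storing and releasing fat in the liver, namely *Cd36*, *Plin2*, *Plin4*, *Plin5*, *Cidea*, *Cideb*, *Cidec*, *G0s2*, *Pnpla2* and *Dgat2*. They were chosen by gene symbol, with earlier results of these data known, and all 10 are among the 24532 genes of the deposited table. Bulk RNA-seq was available for 12 livers of male C57BL/6 mice in 4 groups of 3: WT-con, WT-EtOH, *Ahr* HKO-con and *Ahr* HKO-EtOH. The *Ahr* HKO mice carry floxed *Ahr* alleles and Cre driven by the albumin promoter, so that *Ahr*, which encodes the aryl hydrocarbon receptor (AhR), is deleted in hepatocytes and kept in the other liver cells. The WT mice were littermates without Cre. The mice, 10 to 12 weeks old at the start, received for 5 weeks either the Lieber-DeCarli liquid diet with ethanol (EtOH), at 5% of the volume and 36% of the calories, or an isocaloric liquid diet without it (con).

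Hepatocytes store triglyceride in lipid droplets, which consist of a core of neutral lipid under a single layer of phospholipid and coat proteins. Fatty acids enter through carriers such as CD36 and are esterified, in the last step by DGAT enzymes. Perilipins cover the droplet surface, CIDE proteins let droplets exchange lipid and grow, and adipose triglyceride lipase (the product of *Pnpla2*) starts the hydrolysis of stored triglyceride, which the G0S2 protein inhibits. Ethanol feeding is a classical cause of fatty liver in mice.

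The libraries held 46306518 to 74336255 counts on genes, and 3 counts, the smallest level taken as detectable, corresponded to 0.0404 to 0.0648 CPM (counts scaled to library size). This floor covers counting error only. Levels of single genes are given in CPM, scaled with the TMM factors of edgeR, and changes as log2 fold changes (FC) ± SE from the quasi-likelihood test of edgeR. That test reports no SE, so the SE was derived as the absolute log2 FC divided by the square root of the F statistic. A gene was called changed at an adjusted *P* value under 0.05, with adjustment over the 14038 genes tested. Counts over the whole *Ahr* gene cannot check the deletion, because exon 2, the part removed, makes up 188 of the 5548 bases of its longest GENCODE transcript. The *Ahr* level was 16.6 to 20.1 CPM in WT-con, 20.8 to 30.5 CPM in WT-EtOH, 41.3 to 65.5 CPM in *Ahr* HKO-con and 24.7 to 41.8 CPM in *Ahr* HKO-EtOH livers, so that it was higher, not lower, in the livers labelled *Ahr* HKO on the control diet. *Cyp1a2*, a classical target of AhR, was lower in *Ahr* HKO than in WT livers on the control diet (log2 FC -1.67 ± 0.40, adjusted *P* = 0.0197, edgeR) and on the ethanol diet (log2 FC -0.73 ± 0.12, adjusted *P* = 0.0433). *Cyp1a1*, another such target, had means of 0.256, 1.34, 0.723 and 1.31 CPM in WT-con, WT-EtOH, *Ahr* HKO-con and *Ahr* HKO-EtOH. It was instead higher in *Ahr* HKO on the control diet (log2 FC 1.5 ± 0.46, adjusted *P* = 0.0453), and its log2 FC on the ethanol diet was -0.037 ± 0.30 (adjusted *P* = 0.956). The hepatocyte markers summed to 77300 to 120000 CPM over all livers. The mean correlation of a library with the others of its group ranged from 0.971 to 0.979 across genes.

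Most calls among the 10 genes came from the 2 comparisons with the *Ahr* HKO livers on the control diet, which also had the most calls among all tested genes. In these livers *Cidec*, *Plin4*, *G0s2* and *Plin2* were higher than in WT livers and *Dgat2* was lower, so that 4 of 10 genes were called higher and 1 lower, against 15.4% and 14.2% of all tested genes. Because the 10 genes were chosen with earlier results known, the shares over all genes are a description and not a test of the set. In WT livers ethanol raised *Cd36* and *G0s2*, 2 of 10 genes against 4.84% of all tested genes, and none of the 10 was called lower, against 4.63%. In *Ahr* HKO livers the same diet lowered *Plin2* and *Cidec* and raised *Dgat2*, that is 2 of 10 lower against 15.9% of all tested genes and 1 higher against 14.9%. Between the genotypes on the ethanol diet *Plin5* alone was called, as higher, where 0.712% of all tested genes were called higher and 0.392% lower. DESeq2 called more of the 10 genes and more of all genes, in either direction: 4 of 10 against 17.0% for ethanol in WT, 8 of 10 against 34.7% and 3 of 10 against 10.8% between the genotypes on the control and the ethanol diet, 4 of 10 against 36.7% for ethanol in *Ahr* HKO and 5 of 10 against 28.4% for the interaction of genotype and diet. The median log2 FC of the 10 genes was 0.46 for ethanol in WT, 0.90 between genotypes on the control diet, 0.21 for the genotypes on the ethanol diet and 0.31 for ethanol in *Ahr* HKO, while the median of all tested genes lay between -0.02 and 0.03. *Cidea* passed the filter on low counts only through the groups in which it was high. It is in these medians and among the 8 genes called by DESeq2, and that call is not read as a result. These comparisons share groups: the WT-con livers serve both the ethanol comparison in WT and the genotype comparison on the control diet, and the *Ahr* HKO-con livers serve the latter and the ethanol comparison in *Ahr* HKO. In bulk liver RNA, fewer cells of a type and less RNA per cell cannot be told apart.

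**Figure D1:**
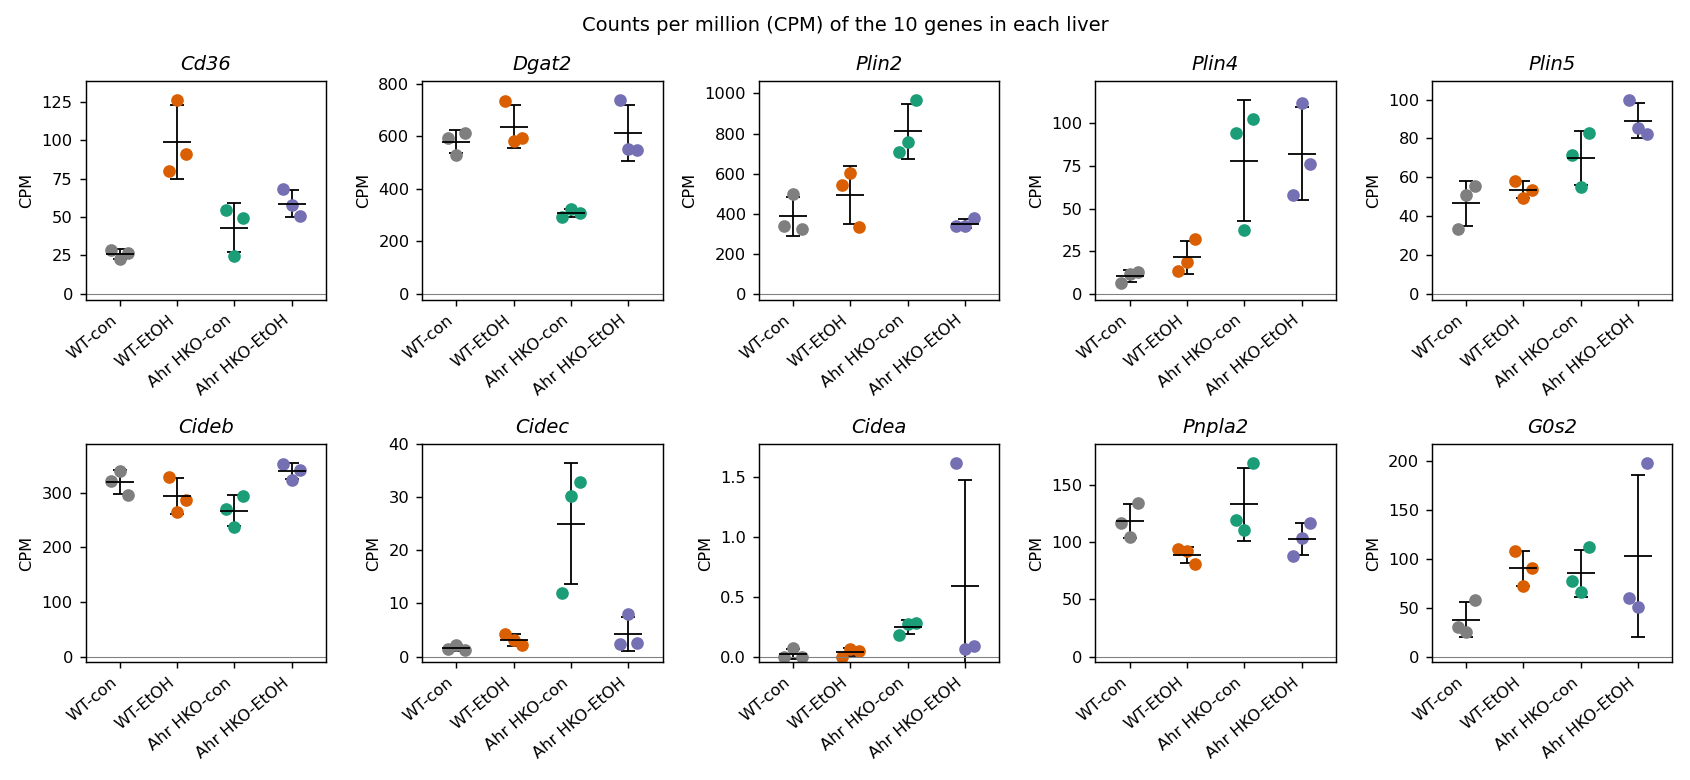
CPM of the 10 genes (vertical axes, each from 0) in the 3 livers of each group (horizontal axis); points are livers, horizontal bars are means and error bars are SD. *Cd36* is highest in the WT-EtOH livers, *Cidec* and *Plin2* are highest and *Dgat2* is lowest in the *Ahr* HKO-con livers, and *Plin4* is higher in both *Ahr* HKO groups than in both WT groups.

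*Cd36* encodes a scavenger receptor that takes up long-chain fatty acids. The WT-con livers had 28.7, 22.7 and 26.8 CPM and the WT-EtOH livers 79.7, 126 and 91.3 CPM. All 3 ethanol-fed WT livers therefore lay above all 3 on the control diet, and the second of them was the highest of the study. The difference was 3.84-fold (log2 FC 1.94 ± 0.19, adjusted *P* = 0.00305, edgeR). The *Ahr* HKO-con livers had 54.5, 24.9 and 49.5 CPM and the *Ahr* HKO-EtOH livers 68.0, 57.6 and 50.6 CPM. The second *Ahr* HKO-con liver lay within the WT-con range and the other two were about as high as the lowest *Ahr* HKO-EtOH liver. Ethanol did not reach the threshold in *Ahr* HKO livers (log2 FC 0.45 ± 0.29, adjusted *P* = 0.269), and the effect of ethanol differed between the genotypes (difference -1.48 ± 0.37 on the log2 scale, adjusted *P* = 0.0165, edgeR with all 12 livers). On the ethanol diet, all 3 *Ahr* HKO livers were below all 3 WT livers, at a log2 FC of -0.76 ± 0.20 that missed the threshold (adjusted *P* = 0.108). On the control diet the genotypes gave a log2 FC of 0.73 ± 0.27 (adjusted *P* = 0.0843), and without the second *Ahr* HKO-con liver this became 1.00 with an adjusted *P* of 0.00428. The liver left out was the lowest of its group, so that fit is a description and not a call. With all livers the difference was called by DESeq2 but not with the replicate number as a block.

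Macrophages also express *Cd36*. The 8 Kupffer cell and macrophage markers summed to 357 to 469 CPM in WT-con, 318 to 820 CPM in WT-EtOH, 314 to 898 CPM in *Ahr* HKO-con and 201 to 248 CPM in *Ahr* HKO-EtOH livers. The highest sum in WT-EtOH, 820 CPM, was in the liver with the highest *Cd36*. The other livers of that group, at 326 and 318 CPM, were below every WT-con liver and had 79.7 and 91.3 CPM of *Cd36*. Without the liver with 820 CPM of markers the log2 FC of *Cd36* was 1.72 (adjusted *P* = 0.00385, edgeR). The *Ahr* HKO-EtOH livers had lower sums and lower *Cd36* than the WT-EtOH livers. The part of macrophages in the differences of *Cd36* by diet and by genotype was not tested.

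*Dgat2* encodes one of the enzymes that add the last fatty acid to diacylglycerol. The WT-con livers had 593, 530 and 614 CPM, and the *Ahr* HKO-con livers had 294, 323 and 310 CPM. These groups did not overlap, and the *Ahr* HKO-con livers were the lowest of the study within a narrow range. The level was 1.87-fold lower (log2 FC -0.90 ± 0.11, adjusted *P* = 0.00216, edgeR). The WT-EtOH livers had 734, 584 and 594 CPM and the *Ahr* HKO-EtOH livers 737, 552 and 549 CPM, with overlapping ranges. Ethanol thus raised *Dgat2* in *Ahr* HKO livers 1.98-fold (log2 FC 0.99 ± 0.15, adjusted *P* = 0.00489), against a log2 FC of 0.15 ± 0.13 in WT (adjusted *P* = 0.494). The effects of ethanol in the 2 genotypes differed by 0.85 ± 0.20 on the log2 scale (adjusted *P* = 0.0124). Every one of these calls for *Dgat2* held whichever liver was dropped.

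The perilipins moved separately. *Plin2* encodes the main droplet coat protein of hepatocytes, which is stable only when bound to droplets. It stood at 338, 501 and 325 CPM in WT-con and at 709, 757 and 965 CPM in *Ahr* HKO-con livers. Each *Ahr* HKO-con liver was above every liver of the other 3 groups, and the genotypes differed 2.1-fold on the control diet (log2 FC 1.07 ± 0.21, adjusted *P* = 0.0101, edgeR). The *Ahr* HKO-EtOH livers had 338, 337 and 377 CPM. They fell within the WT-con range, 2.31-fold below the *Ahr* HKO-con livers (log2 FC -1.21 ± 0.16, adjusted *P* = 0.00323). The WT-EtOH livers had 544, 605 and 332 CPM, where the third was as low as the WT-con livers and the other two were above them all. The log2 FC by ethanol in WT was 0.36 ± 0.26 (adjusted *P* = 0.428), and it differed from that in *Ahr* HKO by -1.56 ± 0.32 (adjusted *P* = 0.00736).

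*Plin4* encodes a perilipin best known from adipocytes. The WT-con livers had 6.16, 11.8 and 12.8 CPM and the WT-EtOH livers 13.4, 18.5 and 32.1 CPM. The *Ahr* HKO-con livers had 94.3, 37.4 and 102 CPM and the *Ahr* HKO-EtOH livers 58.1, 112 and 76.3 CPM. Every *Ahr* HKO liver was therefore above every WT liver, and the diets overlapped within *Ahr* HKO. On the control diet the genotypes differed 7.60-fold (log2 FC 2.93 ± 0.44, adjusted *P* = 0.00372, edgeR). On the ethanol diet the log2 FC of 1.95 ± 0.37 missed the threshold (adjusted *P* = 0.0638, edgeR). It passed with DESeq2, with the replicate number as a block (adjusted *P* = 0.0365) and with all 12 livers in a single fit (adjusted *P* = 0.0365). It also passed without the third WT-EtOH liver (log2 FC 2.36, adjusted *P* = 0.0433), which was the highest of its group. These refits are named because the difference passed in them, and it is not read as a call. Ethanol in WT gave a log2 FC of 1.07 ± 0.38 (adjusted *P* = 0.124) with groups that did not overlap, and ethanol in *Ahr* HKO one of 0.07 ± 0.40 (adjusted *P* = 0.91). The test of the difference between these effects did not pass (-0.98 ± 0.61, adjusted *P* = 0.267).

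*Plin5* encodes the perilipin that tethers droplets to mitochondria in oxidative tissues. Its gene lies beside *Plin4* on chromosome 17, with 1797 bases between them in GENCODE. The livers had 33.3, 51.1 and 55.3 CPM in WT-con, 57.9, 49.5 and 53.6 CPM in WT-EtOH, 71.7, 55.0 and 83.0 CPM in *Ahr* HKO-con and 99.6, 85.5 and 82.5 CPM in *Ahr* HKO-EtOH. The ethanol-fed *Ahr* HKO livers lay above both WT groups, and the *Ahr* HKO-con livers overlapped with WT-con only through the second liver. On the ethanol diet the genotypes differed 1.66-fold (log2 FC 0.73 ± 0.11, adjusted *P* = 0.0381, edgeR). This call was lost whichever of the 6 livers was dropped, with log2 FCs of 0.66 to 0.79 and adjusted *P* values of 0.0584 to 0.13. On the control diet the log2 FC of 0.59 ± 0.22 missed the threshold (adjusted *P* = 0.0863).

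**Figure D2:**
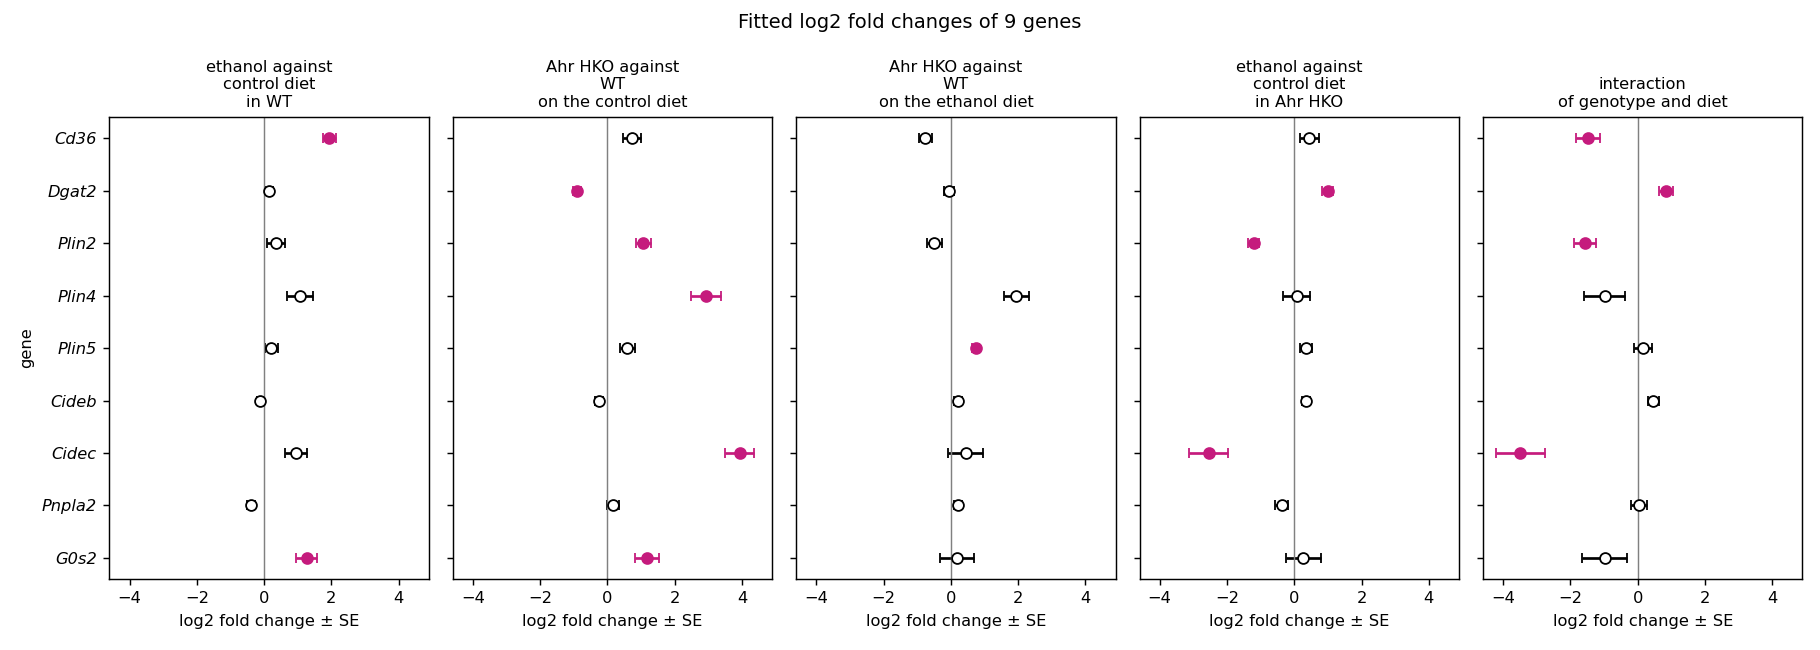
Log2 FC ± SE (horizontal axes) of 9 genes (vertical axis) for the 4 comparisons of groups and, at the right, for the difference between the effects of ethanol in *Ahr* HKO and in WT; filled points have an adjusted *P* value under 0.05. *Cidea* is left out because its counts were 0 to 4 in the WT livers. *Plin2*, *Cidec* and *Dgat2* are filled on opposite sides of 0 in the second and the fourth panel, the genotypes on the control diet being compared in the second and ethanol in *Ahr* HKO in the fourth.

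Of the CIDE genes, *Cidec* (the mouse gene of fat-specific protein 27, which drives the growth of large droplets) changed most. The WT-con livers had 1.40, 2.23 and 1.29 CPM, and the *Ahr* HKO-con livers had 11.9, 30.2 and 33.0 CPM. The groups were far apart, with the first *Ahr* HKO-con liver the lowest of its group. The genotypes differed 15.2-fold on the control diet (log2 FC 3.93 ± 0.44, adjusted *P* = 0.00156, edgeR). The *Ahr* HKO-EtOH livers had 2.3, 7.93 and 2.57 CPM, all below the *Ahr* HKO-con livers, and the level was 5.82-fold lower (log2 FC -2.54 ± 0.58, adjusted *P* = 0.0169). That call was lost without the second *Ahr* HKO-con liver (log2 FC -2.40, adjusted *P* = 0.0507) and without the third *Ahr* HKO-EtOH liver (log2 FC -2.29, adjusted *P* = 0.0579). The WT-EtOH livers had 4.29, 3.10 and 2.12 CPM, of which the third lay within the WT-con range (log2 FC 0.96 ± 0.33, adjusted *P* = 0.123). The effects of ethanol differed between the genotypes by -3.48 ± 0.74 on the log2 scale (adjusted *P* = 0.00775), and this call held whichever of the 12 livers was dropped.

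*Cidea*, the CIDE gene of brown fat, was close to the floor. Its counts were 0, 4 and 0 in WT-con, 0, 4 and 3 in WT-EtOH, 11, 16 and 14 in *Ahr* HKO-con and 114, 4 and 4 in *Ahr* HKO-EtOH livers. It passed the filter on low counts only through the groups in which it was high. A single liver, the first of *Ahr* HKO-EtOH, reached 1.62 CPM, and all others were at most 0.282 CPM. Its counts are therefore given as a description, with no test. *Cideb*, the CIDE gene that hepatocytes express constitutively and that takes part in VLDL lipidation, was by contrast abundant, at 320 ± 21.8, 294 ± 32.9, 267 ± 28.2 and 340 ± 14.9 CPM (SD, n = 3) in WT-con, WT-EtOH, *Ahr* HKO-con and *Ahr* HKO-EtOH. Its log2 FCs lay between -0.25 and 0.34 in the 4 comparisons and none was called. The nearest to the threshold was ethanol in *Ahr* HKO (log2 FC 0.34 ± 0.13, adjusted *P* = 0.0755), which passed with DESeq2 (adjusted *P* = 0.0235) and without the third *Ahr* HKO-con liver (log2 FC 0.43, adjusted *P* = 0.0489). The liver left out was the highest of its group, so that fit is a description and not a call. With the replicate number as a block, ethanol in *Ahr* HKO did not pass. GENCODE places *Cideb* and *Nop9* on opposite strands with 1451 shared bases, and whether reads were counted by strand is not given in the sources used here. *Nop9* was at most 21.7 CPM in any liver.

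*Pnpla2* and *G0s2*, the lipase gene and the gene of its inhibitor, differed in how far they moved. *Pnpla2* had 117, 104 and 134 CPM in WT-con, 93.7, 91.8 and 80.8 CPM in WT-EtOH, 120, 110 and 169 CPM in *Ahr* HKO-con and 88.1, 103 and 116 CPM in *Ahr* HKO-EtOH livers. Ethanol-fed WT livers all lay below WT-con livers, with a log2 FC of -0.40 ± 0.12 that missed the threshold (adjusted *P* = 0.0795), and that passed with DESeq2 (adjusted *P* = 0.0249). No other comparison of *Pnpla2* was called.

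*G0s2* had 30.2, 25 and 58.2 CPM in WT-con and 108, 72.5 and 90.2 CPM in WT-EtOH livers. The groups did not overlap, though the third WT-con liver was closer to the lowest ethanol-fed liver than to the others of its group (log2 FC 1.27 ± 0.31, adjusted *P* = 0.049, edgeR). This call lay at the threshold, and 5 of 7 other settings gave adjusted *P* values of 0.0508 to 0.124. Leaving out any liver but the third WT-con liver gave adjusted *P* values of 0.0703 to 0.157 with log2 FCs of 1.04 to 1.39, and without that liver the log2 FC was 1.72 (adjusted *P* = 0.0139). The *Ahr* HKO-con livers had 77.1, 65.7 and 112 CPM, above all WT-con livers (log2 FC 1.18 ± 0.34, adjusted *P* = 0.0383). That call was lost without the first or second WT-con liver or the first or the third *Ahr* HKO-con liver, at adjusted *P* values of 0.064 to 0.119 and log2 FCs of 0.92 to 1.24. The *Ahr* HKO-EtOH livers had 59.8, 50.2 and 198 CPM, where the third stood apart. Without it, the difference between the effects of ethanol moved from -0.98 ± 0.68 (adjusted *P* = 0.322) to -1.88 (adjusted *P* = 0.0238). This fit is given because that liver stood apart, and it is a description and not a call. GENCODE places *G0s2* within *Lamb3* on the opposite strand, and *Lamb3* had 2.18 to 5.14 CPM.

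Levels of different genes can be compared only per length, for which the FPKM values of the authors were used. In WT-con livers the order was *Cideb* (257 FPKM), *Dgat2* (243), *Plin2* (194), *G0s2* (42.4), *Pnpla2* (42.2), *Plin5* (22.3), *Cd36* (7.04), *Plin4* (1.68), *Cidec* (0.893) and *Cidea* (0.0191), all as means in FPKM. The range of *Cideb* overlapped with that of *Dgat2* and the latter with that of *Plin2*, as did those of *G0s2* and *Pnpla2* and those of *Plin4* and *Cidec*. In *Ahr* HKO-con livers *Plin2* came first at 410 FPKM, above the range of *Cideb* (218 FPKM) and *Dgat2* (132 FPKM), and *Cidec* (13.9 FPKM), *Plin4* (12.8 FPKM) and *Cd36* (11.7 FPKM) had overlapping ranges. In WT-EtOH livers *Cd36* reached 30.6 FPKM, in the range of *Pnpla2* (35.7 FPKM) and *Plin5* (29.0 FPKM). In *Ahr* HKO-EtOH livers *Cideb* (264 FPKM), *Dgat2* (248 FPKM) and *Plin2* (169 FPKM) were again the first 3.

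*Plin2* made up most of the perilipin RNA in every liver. Of the summed FPKM of *Plin1* to *Plin5*, it held 81.0% ± 3.74 in WT-con, 82.2% ± 5.45 in WT-EtOH, 86.4% ± 2.43 in *Ahr* HKO-con and 69.8% ± 2.61 in *Ahr* HKO-EtOH livers (SD, n = 3). The ethanol-fed *Ahr* HKO livers held more *Plin5*, at 17.1% ± 2.03 against 9.07% ± 2.54 in WT-EtOH, and more *Plin4*, at 5.37% ± 1.86 against 1.32% ± 0.956. Their summed perilipin FPKM was 242 to 244, the range of the WT-con livers being 207 to 295 and that of the *Ahr* HKO-con livers 429 to 537. The sums of the WT-EtOH livers ran from 243.3 to 418.5, so that the lowest of them was at the level of the *Ahr* HKO-EtOH livers. Thus the ethanol-fed *Ahr* HKO livers had a perilipin total like that of WT-con livers and of 1 WT-EtOH liver, with a different composition. These sums are of FPKM, to which the TMM factors were not applied. *Plin1*, the adipocyte perilipin, had no count in any liver, and *Plin3*, found in most tissues, stayed between 37.3 and 57.5 CPM.

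Among the CIDE genes, *Cideb* held 99.6% ± 0.099 of the summed FPKM in WT-con livers, and *Cidec* rose from 0.343% ± 0.0868 there to 5.98% ± 2.69 in *Ahr* HKO-con livers. It held 0.722% ± 0.197 in WT-EtOH and 0.863% ± 0.675 in *Ahr* HKO-EtOH. The ratio of *G0s2* to *Pnpla2* FPKM was 0.805, 0.751 and 1.38 in WT-con, 3.61, 2.47 and 3.49 in WT-EtOH, 1.99, 1.87 and 2.07 in *Ahr* HKO-con and 2.12, 1.49 and 5.32 in *Ahr* HKO-EtOH livers. All 9 livers that were ethanol-fed or *Ahr* HKO had a higher ratio than the 3 WT-con livers. These shares and ratios are descriptions and were not tested.

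**Figure D3:**
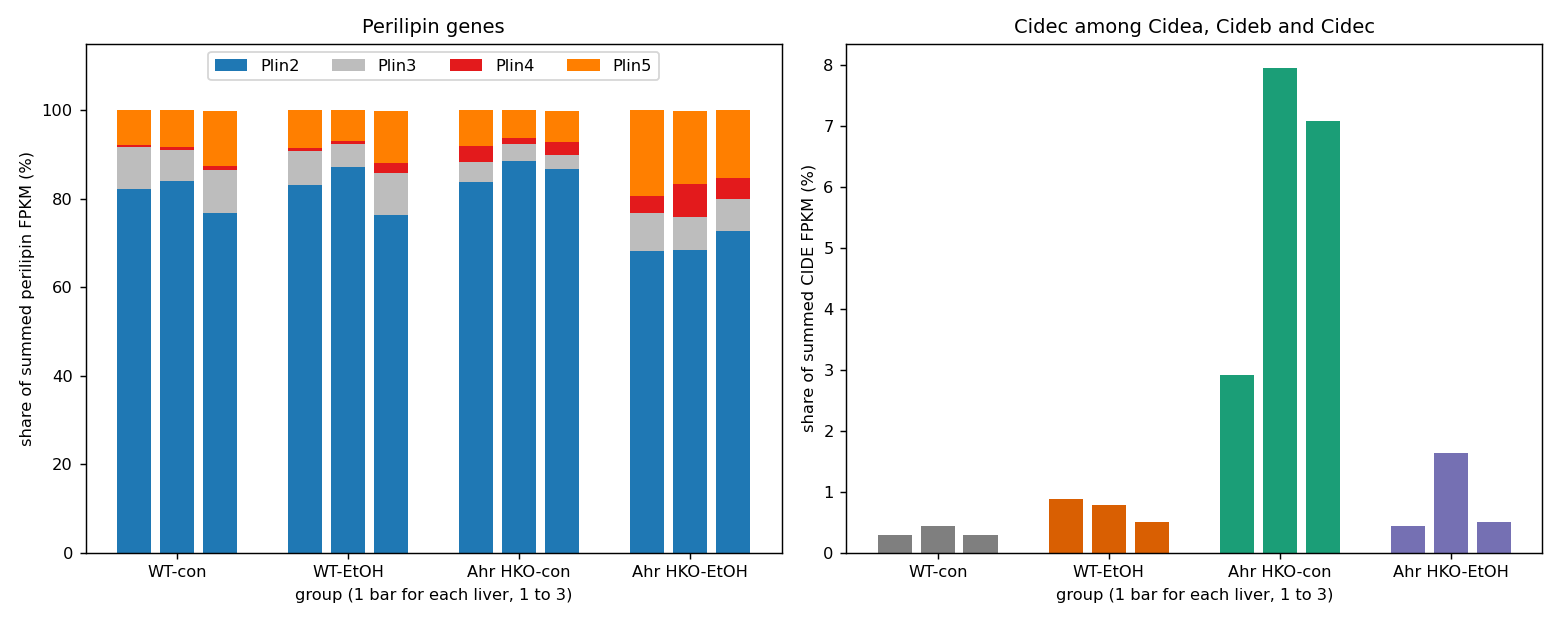
Left, share (%) of *Plin2*, *Plin3*, *Plin4* and *Plin5* in the summed perilipin FPKM of each liver; right, share (%) of *Cidec* in the summed FPKM of *Cidea*, *Cideb* and *Cidec*; bars are livers 1 to 3 of each group. *Plin2* holds 68.1% to 72.8% in the *Ahr* HKO-EtOH livers and at least 76.3% in all others, and *Cidec* holds 2.92% to 7.95% in the *Ahr* HKO-con livers and at most 1.64% in all others.

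Several of these genes are also adipocyte genes, so fat tissue in the samples was looked at. Of the 8 adipocyte markers, *Lep*, *Retn*, *Plin1* and *Ucp1* had no count in any liver, and *Adipoq* was at most 0.0653 CPM. The summed level of the list was 29.9 to 39.6 CPM in WT-con, 18.3 to 24.1 CPM in WT-EtOH, 49.1 to 98.9 CPM in *Ahr* HKO-con and 21.5 to 28.6 CPM in *Ahr* HKO-EtOH livers. Most of the excess in *Ahr* HKO-con was *Fabp4*, which adipocytes, macrophages and endothelial cells express, at 48.6, 50.4 and 35.5 CPM against 6.85 to 11.6 CPM in the other groups. *Lipe*, also on the list, went the other way, at 15.5, 12.8 and 11.4 CPM in *Ahr* HKO-con against 26.9, 21.9 and 27.8 CPM in WT-con. The markers of the list thus did not move together. The first *Ahr* HKO-con liver also had 34.7 CPM of *Cfd*, and all others had at most 2.26 CPM. That liver was the lowest of its group for *Cidec* and *Plin2*. It also had the highest macrophage sum, 898 CPM, and the highest *Spp1*, at 462 CPM, which gave it the highest cholangiocyte sum of 476 CPM. Without it, the log2 FCs of *Plin2*, *Plin4*, *Cidec* and *Dgat2* between the genotypes on the control diet remained called, as they did without any other single liver.

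Endothelial markers summed to 292 to 370 CPM in WT-con, 220 to 477 CPM in WT-EtOH, 316 to 337 CPM in *Ahr* HKO-con and 215 to 242 CPM in *Ahr* HKO-EtOH livers. Stellate cell markers were lowest in *Ahr* HKO-con, at 238 to 257 CPM, against 251 to 331 CPM in WT-con, 350 to 402 CPM in WT-EtOH and 278 to 326 CPM in *Ahr* HKO-EtOH. Lymphocyte markers summed to at most 25 CPM, and striated muscle markers to at most 0.0944 CPM. Their part in the changes of the 10 genes was not tested.

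The other genes of these pathways were read from 5 lists, also chosen with earlier results of these data known. On the control diet, 2 of 18 tested genes for fatty acid uptake, binding and activation were higher in *Ahr* HKO than in WT livers and 4 were lower (15.4% and 14.2% of all tested genes). *Fabp4* rose most (log2 FC 2.38 ± 0.23, adjusted *P* = 0.00108), followed by *Acsl4*, which activates arachidonic acid (log2 FC 1.62 ± 0.23, adjusted *P* = 0.00313). *Slc27a1*, a fatty acid transporter, fell by 1.00 on the log2 scale (adjusted *P* = 0.00854). Of 13 triglyceride synthesis genes 2 were higher and 2 lower, among them the phosphatidate phosphatase *Lpin1* (log2 FC 1.84 ± 0.32, adjusted *P* = 0.00663) and the acyltransferase *Gpam* (log2 FC -0.90 ± 0.19, adjusted *P* = 0.0132).

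For the hydrolysis of triglyceride, 1 of 13 genes was higher and 3 were lower in *Ahr* HKO livers on the control diet. The one that rose was *Hilpda*, whose product inhibits adipose triglyceride lipase as G0S2 does (log2 FC 1.13 ± 0.22, adjusted *P* = 0.00865), and *Lipe*, the gene of hormone-sensitive lipase, fell (log2 FC -0.94 ± 0.14, adjusted *P* = 0.00397). Of 16 tested genes for droplet formation and other droplet proteins 1 was higher and 3 were lower. *Rab18*, a small GTPase of the droplet surface, rose (log2 FC 0.79 ± 0.14, adjusted *P* = 0.006) and *Mettl7a1* fell (log2 FC -1.28 ± 0.13, adjusted *P* = 0.0013). Of 16 transcription factors 2 were higher and 4 lower. *Srebf1*, the gene of the lipogenic factor SREBP-1, fell most (log2 FC -2.04 ± 0.13, adjusted *P* = 0.000603), and *Hnf4a*, a regulator of hepatocyte identity, rose (log2 FC 0.97 ± 0.14, adjusted *P* = 0.00331). Of the 18 list genes that the naming rule picks for these genotypes on the control diet, 12 kept their call whichever liver was dropped, among them all those given here.

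**Figure D4:**
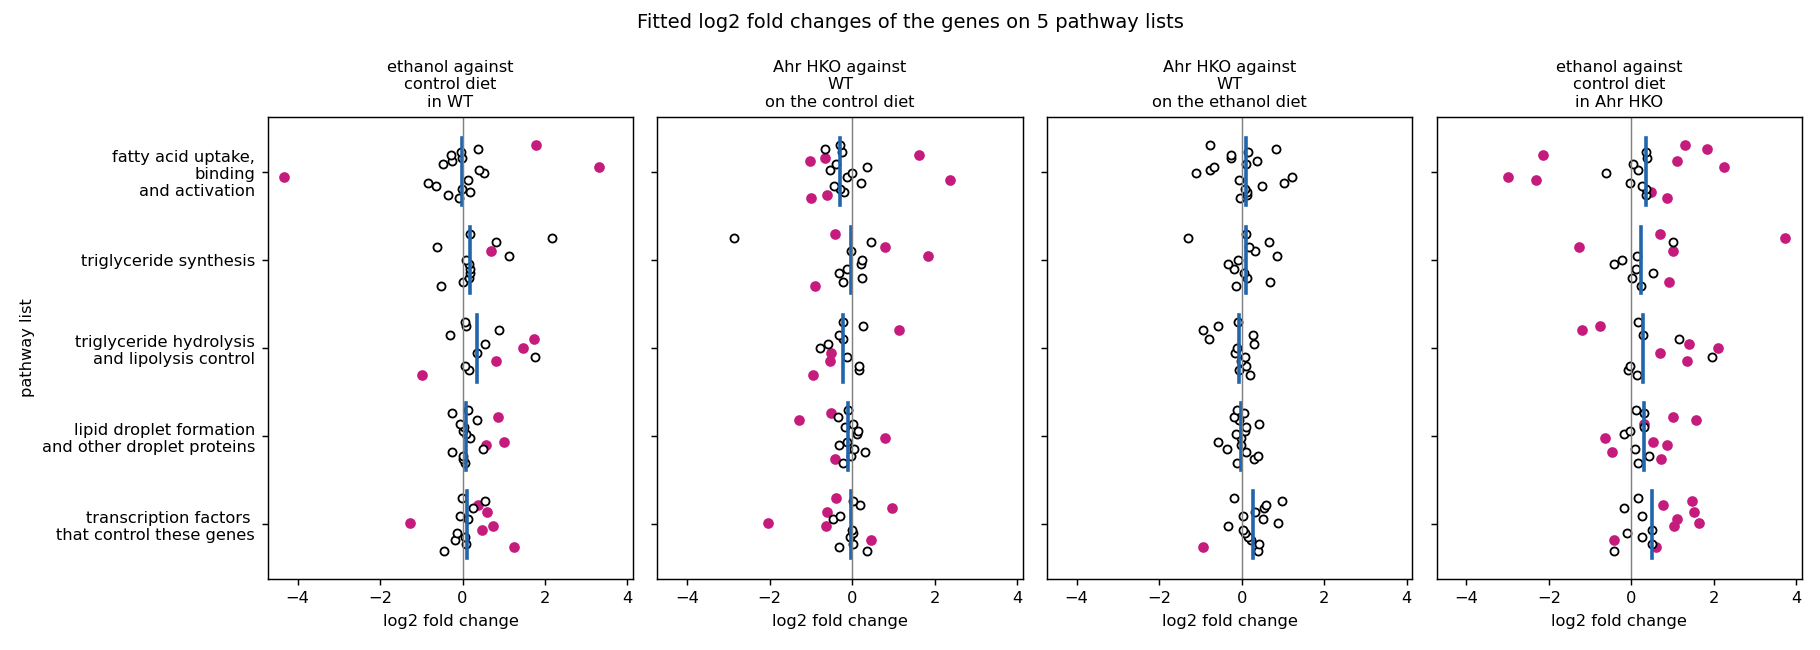
Log2 FC (horizontal axes) of each tested gene of 5 pathway lists (rows) in the 4 comparisons of groups; filled points have an adjusted *P* value under 0.05 and vertical bars are list medians. *Fabp5* at -4.32 and *Vldlr* at 3.30 are the outermost filled points for ethanol in WT, and for the genotypes on the ethanol diet *Pparg* at -0.94 is the only filled point.

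Ethanol in WT livers raised 2 of 18 uptake genes and lowered 1 (4.84% and 4.63% of all tested genes). The very-low-density lipoprotein receptor gene *Vldlr* rose (log2 FC 3.30 ± 0.40, adjusted *P* = 0.00551), and the fatty acid binding protein gene *Fabp5* fell (log2 FC -4.32 ± 0.22, adjusted *P* = 0.000338). It raised 1 of 13 synthesis genes and lowered none, raised 3 of 13 hydrolysis genes and lowered 1, and raised 3 of 16 droplet genes and lowered none. Of 16 transcription factors 5 rose, with *Pparg*, the gene of the adipogenic factor PPARγ, first (log2 FC 1.24 ± 0.18, adjusted *P* = 0.0109), and 1 fell, namely *Srebf1* (log2 FC -1.26 ± 0.25, adjusted *P* = 0.0245). Of the 12 list genes that the naming rule picks in this comparison, *Vldlr*, *Fabp5*, *Pparg* and *Nr1i3* kept their call whichever liver was dropped, and 8 did not.

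Ethanol in *Ahr* HKO livers raised 6 of 18 uptake genes and lowered 3, raised 4 of 13 synthesis genes and lowered 1, raised 4 of 13 hydrolysis genes and lowered 2, raised 6 of 16 droplet genes and lowered 2, and raised 7 of 16 transcription factors and lowered 1 (14.9% and 15.9% of all tested genes). *Fabp4* fell (log2 FC -2.32 ± 0.19, adjusted *P* = 0.00134), as did *Hilpda* (log2 FC -1.21 ± 0.23, adjusted *P* = 0.00906). The carboxylesterase gene *Ces1d*, whose product hydrolyses hepatic triglyceride, rose (log2 FC 2.09 ± 0.28, adjusted *P* = 0.00328), and so did *Mettl7a1* (log2 FC 1.57 ± 0.14, adjusted *P* = 0.00147) and *Ppargc1a*, a coactivator of fatty acid oxidation genes (log2 FC 1.51 ± 0.15, adjusted *P* = 0.00182). Of the 18 list genes that the rule picks here 10 kept their call whichever liver was dropped.

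On the ethanol diet the genotypes differed in 1 of the 76 tested list genes, where 0.712% of all tested genes were called higher and 0.392% lower. *Pparg* was lower in *Ahr* HKO livers, with 9.16, 8.70 and 6.83 CPM against 16.5, 14.4 and 16.8 CPM in WT (log2 FC -0.94 ± 0.14, adjusted *P* = 0.0387, edgeR), and this call was lost whichever of the 6 livers was dropped. The 4 lists without a call had 4 uptake, 1 synthesis, 3 hydrolysis and 4 droplet genes at an unadjusted *P* value under 0.05, as had 21.0% of all tested genes. DESeq2 called 3, 1, 3 and 2 of them, and 10.8% of all tested genes.

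The genes most like each of the 10 were sought among the 11717 other tested genes with a mean of at least 1 CPM, by Pearson's r of log2 CPM over the 12 livers. The livers share groups, so r mostly describes the 4 group levels. *Dgat2* was followed most closely, by *Mapk9* (r = 0.984), *Serpind1* (r = 0.983) and *Setd3* (r = 0.978), and *Cidec* by *Gga3* (r = 0.976), *Pofut2* (r = 0.974) and *Brix1* (r = 0.961). *Plin4* was most like *Rlf* (r = 0.966), which was also the third gene for *Plin5* (r = 0.92), and *Cideb* was most like *Proc* (r = 0.958). *Cd36* was most like *Pdk4* (r = 0.941), the kinase gene that limits glucose oxidation, then *Cyp2a4* (r = 0.937) and *Cyp2c38* (r = 0.931). For *Plin2* the first gene was *Gnl3l* (r = 0.937) and for *Pnpla2* it was *Pdss1* (r = 0.93). Apart from *Cidea*, the weakest likeness was that of *G0s2* (r = 0.883 with *Ppp2r2a*). The first gene for *Cidea* was *Spg20* (r = 0.849). *Cidea* had 0 to 4 counts in the WT livers and 114 in the first *Ahr* HKO-EtOH liver, so this r is not read as a likeness.

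The genes lie on different chromosomes apart from the neighbours *Plin4* and *Plin5* and from *Dgat2* and *Pnpla2*, which are both on chromosome 7. Promoter sequences of RefSeq (GRCm38.p6) were matched for 8 of the 10 genes, and *Cidea* and *Dgat2* were not matched. In the 250 bases before each start, both strands were searched for GCGTG, the core of the AhR binding site. It occurred in 28.2% of the 32851 mouse promoter windows of this length, and here in the windows of *G0s2* and *Plin2*, in 1 of 2 windows of *Cidec* and in both windows of *Plin5*. The windows of *Cd36*, *Pnpla2*, *Cideb* and *Plin4* did not hold these letters. The longer motif TNGCGTG, which contains GCGTG, was in 1 of 2 windows of *Plin5* and in 4.1% of all windows. CACGTG, an E-box in which the same letters read on both strands, was in 6.02% of all windows and in none of these. The DR1 element, 2 copies of AGGTCA with 1 base between them, which PPAR and RXR bind, was in 0.0335% of all windows and in none of these. A match of letters is a description and not a binding site.

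The stretches before the starts of the 4 genes that were higher in *Ahr* HKO than in WT livers on the control diet are shown, because all 4 were called in that comparison. They are written 5′ to 3′ on the minus strand, on which all 4 genes lie, and leave out annotated exons and the span of the gene itself. Capitals mark GCGTG. The matches of *Plin2* and of the second window of *Cidec* lie outside the stretches shown. The stretches are chr1:193273218-193273337 for *G0s2*, chr4:86670218-86670309 for *Plin2*, chr6:113435761-113436010 for *Cidec* and chr17:56109949-56110032 for *Plin4*.
G0s2: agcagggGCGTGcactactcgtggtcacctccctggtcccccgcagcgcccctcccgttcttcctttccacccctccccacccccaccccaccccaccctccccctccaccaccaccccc
Plin2: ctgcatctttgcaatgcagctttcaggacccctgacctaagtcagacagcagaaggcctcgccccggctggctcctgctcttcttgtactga
Cidec: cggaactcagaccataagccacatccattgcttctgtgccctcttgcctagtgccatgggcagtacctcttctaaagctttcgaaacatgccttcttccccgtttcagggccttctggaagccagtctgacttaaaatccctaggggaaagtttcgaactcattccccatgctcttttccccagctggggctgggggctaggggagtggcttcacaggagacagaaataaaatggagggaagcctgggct
Plin4: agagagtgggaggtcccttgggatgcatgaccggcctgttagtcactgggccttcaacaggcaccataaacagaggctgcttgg
The *G0s2* stretch is the only one with the motif. *Cidec* and *Plin4*, which of the 4 genes shown differed most between the genotypes on the control diet, hold no GCGTG in these stretches.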

How the data were processed

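Polyadenylated RNA of 12 livers was made into stranded libraries and sequenced from both ends. Per the labels, the submitters used FastQC 0.11.7, Trimmomatic 0.38, HISAT2 2.1.0, Bowtie2 2.3.4.1, StringTie 1.3.4d and the build mm10. The authors deposited a read count per gene without normalization, FPKM values scaled by the authors for gene length and library size, and TPM values, of which the deposited sums per library (924962 to 987569) were the only use. The labels number the livers of a group, and *P* values measure the spread between them.

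Genes were filtered with filterByExpr, scaled with TMM factors (0.925 to 1.16) and tested with the quasi-likelihood test of edgeR 4.0.16 in R 4.3.3. Each pair of groups used its own 6 libraries and the interaction of genotype and diet used all 12. Alternatives were RLE factors, DESeq2 1.42.0, no filter, the replicate number as a block, all 12 libraries in a single fit, limma 3.58.1 on log2(FPKM + 1), also after quantile normalization, other thresholds and leaving out each liver. CPM used the TMM factors, and log2 CPM a prior count of 2. In data simulated for each comparison, 145 to 152 of 200 genes changed by 1.5 on the log2 scale were recovered among 14038 between pairs of groups, and 99 of 200 for the interaction. False calls were 8 to 11 between pairs of groups and 2 for the interaction. The simulated share of changed genes was the same in every comparison, unlike the share called in the data. The recovery therefore does not give the power of each real comparison.

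All 10 genes are described. From each list, at most the 2 genes with the strongest rise and the 2 with the strongest fall among called genes were eligible to be named, and for likeness the first 3 by r. The 10 genes and the lists were chosen with earlier results of these data known. Positions come from RefSeq (GRCm38.p6) and GENCODE vM21, both of the assembly that mm10 denotes. Figures were drawn with matplotlib 3.10.9.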

Additional observations from a re-analysis of the deposited data

Results flagged for a closer look

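The effect of ethanol differed between *Ahr* HKO and WT livers for 4 of the 10 genes, by the interaction term of edgeR over all 12 livers, against 11.2% of all tested genes with a positive and 11.1% with a negative difference. The difference on the log2 scale, *Ahr* HKO minus WT, was -1.48 for *Cd36*, -1.56 for *Plin2*, -3.48 for *Cidec* and 0.85 for *Dgat2*. *Cd36* is the one of these whose effect of ethanol was called in WT and not in *Ahr* HKO, and the other 3 were called in *Ahr* HKO alone. Each of the 4 differences held whichever of the 12 livers was dropped.

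Among the list genes picked by the naming rule, the difference was -2.45 for *Fabp4*, -1.87 for *Acsl4*, -2.08 for *Hilpda* and -0.81 for *Rab18*. It was 1.40 for *Acsl1*, 1.34 for *Fabp5*, 0.92 for *Gpat4*, 0.53 for *Dgat1*, 1.14 for *Lipe*, 0.61 for *Aadac*, 1.23 for *Mettl7a1*, 0.71 for *Bscl2*, 2.92 for *Srebf1* and 0.98 for *Mlxipl*. *Fabp5*, *Aadac*, *Mlxipl*, *Acsl4* and *Dgat1* lost the call in 10, 9, 6, 2 and 1 of the 12 fits that each dropped a liver. The effect of ethanol on *Srebf1* was called in WT (log2 FC -1.26) and in *Ahr* HKO (log2 FC 1.65), but these calls were lost in 4 and in 3 of the 6 fits that each dropped a liver. The *Ahr* HKO-EtOH livers had 438, 140 and 153 CPM of it against 69.7, 76.7 and 86.4 CPM in *Ahr* HKO-con, and without the first of them the log2 FC was 0.92 in *Ahr* HKO and the difference 2.19.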

How the results depend on the processing

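For ethanol in WT, 2 of the 10 genes were called. The count was 1 with RLE factors, without the filter, with limma on quantile-normalized log2(FPKM + 1) and with all 12 libraries in a single fit, it was 4 with DESeq2 and 4 at an adjusted *P* under 0.25 with an FC over 1.5 (14.1% of all tested genes), and it was 1 to 2 when each liver was left out. For the genotypes on the control diet DESeq2 called 8 in place of 5, adding *Cd36*, *Plin5* and *Cidea*, and leaving out livers gave 4 to 6. The call of *Cidea* is not read as a result, because it passed the filter only through the groups in which it was high. For the genotypes on the ethanol diet the count of 1 became 3 with DESeq2, 2 with the replicate block, 2 at an unadjusted *P* under 0.05 with an FC over 2 (6.13% of all tested genes), and 0 to 1 when livers were left out. Leaving out livers gave 2 to 4 for ethanol in *Ahr* HKO (3) and 4 to 5 for the interaction (4). Same-numbered livers correlated at -0.0884 to 0.178 in their deviations from group means, so the numbers do not pair the livers. The fits with the replicate block therefore describe only how calls move, and do not grade the genes. With the replicate block the counts were 2, 5, 2, 3 and 4 in the order of the report. Over all tested genes the block called 3.68%, 21.4%, 1.75%, 21.4% and 19.6% in the same order, in either direction. Counts given here without a share over all genes describe only how the calls moved. For ethanol in WT the block lost *G0s2* (adjusted *P* = 0.0508, edgeR) and called *Plin4* (adjusted *P* = 0.0328), so that *Cd36* alone was called both ways, and between the genotypes on the ethanol diet it added *Plin4* (adjusted *P* = 0.0365).

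No called log2 FC of the 10 genes changed sign. Some that were not called did, and the cause was not tested. With limma on log2(FPKM + 1) these were *Cideb* for ethanol in WT (0.043) and for the genotypes on the ethanol diet (-0.0045), *Pnpla2* (-0.0051) and *G0s2* (-0.30) in the latter, *G0s2* for ethanol in *Ahr* HKO (-0.048), and *Plin5* (-0.097) and *Pnpla2* (-0.18) for the interaction. With quantile normalization they were *G0s2* for the genotypes on the ethanol diet (-0.19) and for ethanol in *Ahr* HKO (-0.17) and *Pnpla2* for the interaction (-0.0027). With the replicate block they were *G0s2* for the genotypes on the ethanol diet (-0.097) and *Cidea* for ethanol in *Ahr* HKO (-0.024). When livers were left out in turn, the values spanned 0 for *Cidea* for ethanol in WT (-0.021 to 4.16), *Pnpla2* for the genotypes on the control diet (-0.045 to 0.29), *Cidec* (-0.39 to 0.75), *G0s2* (-0.71 to 0.51) and *Dgat2* (-0.20 to 0.057) for the genotypes on the ethanol diet, *Plin4* (-0.26 to 0.32), *Cidea* (-1.68 to 1.83) and *G0s2* (-0.63 to 0.60) for ethanol in *Ahr* HKO, and *Cidea* (-2.92 to 1.33) and *Pnpla2* (-0.076 to 0.25) for the interaction. limma on log2(FPKM + 1) without quantile normalization shifted the median log2 FC of all genes to 0.10 for ethanol in WT, -0.13 for the genotypes on the ethanol diet and -0.14 for the interaction, and it called 1631 genes higher and 406 lower for ethanol in WT, where edgeR called 679 and 650, 78 and 423 for the genotypes on the ethanol diet (edgeR 100 and 55), 1724 and 2465 for ethanol in *Ahr* HKO (edgeR 2085 and 2237) and 810 and 2712 for the interaction (edgeR 1576 and 1561). Over all genes, the calls higher and lower were 1189 and 1146 with DESeq2 and 289 and 228 with the replicate block for ethanol in WT. For the genotypes on the ethanol diet they were 714 and 797 with DESeq2, 150 and 95 with the block, 329 and 246 with all 12 libraries and 54 and 40 with quantile normalization. The counts of called list genes moved by over 1.5 times in 73 of 380 refits or thresholds. With 3 livers a group, *G0s2* and *Plin5* lie at the threshold.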

Other observations

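*Dbp*, a gene whose level in liver follows the time of day, was chosen for its values after they were seen. It had 83.4, 96.1 and 121 CPM in WT-con, 37.2, 113 and 74.6 CPM in WT-EtOH, 41.1, 12.5 and 17.5 CPM in *Ahr* HKO-con and 33.9, 179 and 141 CPM in *Ahr* HKO-EtOH livers. The *Ahr* HKO-con livers all lay below the WT-con livers, and the ethanol-fed groups were spread widely. Among other genes of the circadian clock, *Nr1d1* and *Nr1d2* were also lower in every *Ahr* HKO-con than in every WT-con liver. The ranges of *Ciart*, *Clock* and *Arntl* overlapped between these groups. The part of the time of day in the levels of the 10 genes was not tested, and the time at which each liver was taken is not given in the labels used here.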
